A study of Mus musculus with 16 samples.

Results

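The early growth response factors *Egr1*, *Egr2* and *Egr3*, their corepressors *Nab1* and *Nab2*, and the repressors *Gfi1* and *Gfi1b* were followed in 16 RNA-seq libraries of mouse blood progenitors. The 7 members were chosen by gene symbol from a table of 54347 genes, and all 7 were found there. Cells were sorted from bone marrow pre-enriched for c-Kit as LSKs (Lin-Sca-1+c-Kit+, holding stem cells and multipotent progenitors) or GMPs (Lin-Sca-1-c-Kit+Cd16/32+, granulocyte-monocyte progenitors). Each cell type was taken from 4 WT mice and 4 preleukemic UREΔ mice, littermates on a C57BL/6 background aged 8 to 12 weeks. UREΔ mice lack the upstream regulatory element of *Spi1* in every cell of the body, and *Spi1* encodes PU.1. The study set out to learn how progenitors with little PU.1 differentiate and persist, and the members were examined here for the levels they take in each genotype and compartment.

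Egr proteins are zinc finger activators that cells switch on quickly after growth factor signals, and Nab1 and Nab2 bind to them and turn activation into repression. Gfi1 and Gfi1b are closely related zinc finger repressors that recruit the histone demethylase Lsd1 (Kdm1a) and CoREST. In myeloid progenitors PU.1 is known to favour macrophage fate through Egr2 and Nab2, whereas Gfi1 is needed for neutrophils and represses the macrophage side. Gfi1b is best known from erythroid cells and megakaryocytes, and Gfi1 and Gfi1b are known to repress each other and themselves.

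Promoter sequences are shown for *Gfi1b*, the member called between the genotypes in LSKs, and for *Nab1*, because it carries the textbook element bound by Egr proteins. They were taken from the RefSeq promoter table for GRCm38.p6, which matched 5 of the 7 members in 10 windows, and *Egr1* and *Egr3* were not among them. The 250 bases before the *Gfi1b* start site lie on the minus strand at chr2:28621983-28622232. Capitals mark AATC or GATT (the core bound by Gfi proteins on either strand) and GATAA (the core bound by GATA factors).
Gfi1b upstream: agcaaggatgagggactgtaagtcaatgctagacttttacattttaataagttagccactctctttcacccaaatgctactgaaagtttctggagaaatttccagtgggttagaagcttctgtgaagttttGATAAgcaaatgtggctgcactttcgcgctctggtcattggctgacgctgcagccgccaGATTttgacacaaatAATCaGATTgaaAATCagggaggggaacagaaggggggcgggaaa
The AATC core was found 4 times, starting 60, 45, 40 and 33 bases before the start site. Of all 32851 windows of 250 bases in the table, 69.0% held this core at least once and 7.04% held it at least 4 times. The GATAA core was found once, 119 bases before the start site, and 22.6% of the windows held it on either strand. The PU.1 box GAGGAA, present on either strand in 23.3% of windows, was not found in this stretch. The shorter core GGAA, shared by PU.1 and other ETS factors and present in 93.4% of windows, was found 3 times on either strand.

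For *Nab1*, stretches around each match to the 2 textbook Egr elements, GCGTGGGCG and GCGGGGGCG, are shown 5′ to 3′ on the minus strand, with the element or its reverse complement in capitals. They lie at chr1:52500571-52500599, chr1:52500539-52500567 and chr1:52500468-52500496, inside the first exon of a longer *Nab1* transcript in GENCODE M21.
Nab1 element 141 bases before the start site: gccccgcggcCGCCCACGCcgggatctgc
Nab1 element 109 bases before the start site: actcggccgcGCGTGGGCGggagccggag
Nab1 element 38 bases before the start site: gcggggcgggGCGGGGGCGgcggaggtgg
The form with T occurred in 0.536% of all windows and the form with G in 2.57%. Neither form was found in the windows of *Nab2*, *Gfi1*, *Gfi1b* or *Egr2*. The *Nab2* window, chr10:127666704-127666953, lies inside the gene as placed by GENCODE M21, so the bases before its outermost start were not searched. These matches describe letters in the sequence, and binding was not measured here.

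Libraries held between 20028302 and 29128858 counts. At most 10 ng of RNA went into each, and no molecular identifiers were added, so that limits given here cover counting error only. Levels are given as CPM, counts scaled to TMM effective library size. *Spi1* checked the genotype labels, at 69.5 to 166 CPM in WT LSKs against 1.13 to 4.44 in UREΔ LSKs, and at 84.8 to 181 CPM in WT GMPs against 15.6 to 28.6 in UREΔ GMPs. The sorted compartments carried their labels, since *Fcgr3*, which encodes Cd16, rose from a mean of 10.9 to 322 CPM in WT and from 14.8 to 824 CPM in UREΔ, and *Ly6a*, which encodes Sca-1, fell from 91.8 to 2.25 CPM and from 61.4 to 1.36 CPM. Libraries with the same replicate number resembled each other across groups, with correlations of their deviations between 0.237 and 0.711. The Y-linked *Ddx3y* had counts above 10 in 3 of 4 WT libraries and 1 of 4 UREΔ libraries of each cell type, so that genotype and presence of Y-linked transcripts partly coincide.

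Genes with a fold change above 1.5 and an edgeR adjusted p below 0.05 were called. In LSKs, 1 of 5 members tested was called higher in UREΔ cells and 0 lower, where 2.38% of all genes tested were called higher, 3.76% lower and 6.14% in either direction. In GMPs, 0 of 4 members tested were called, while 4.67% of all genes were called higher, 3.63% lower and 8.3% in either direction. In GMPs 1 member, *Gfi1*, had an unadjusted edgeR p under 0.05, and DESeq2 called 0. From LSKs to GMPs, 2 of 5 members fell in WT, where 15.8% of all genes fell, 11.5% rose and 27.3% did either. In UREΔ, 1 of 5 rose and 1 fell, where 9.2% of all genes rose, 12.6% fell and 21.8% did either. *Egr2* and *Egr3* had too few counts for any of these tests, and *Egr1* for the one in GMPs. The interaction, which asks whether the genotype effect differed between LSKs and GMPs, called 0 of 5 members at an adjusted p under 0.05, against 1.22% of all genes (0.866% with a higher and 0.351% with a lower effect in GMPs). There, too, *Gfi1* was the 1 member with an unadjusted p under 0.05, and DESeq2 called 0.

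**Figure D1:**
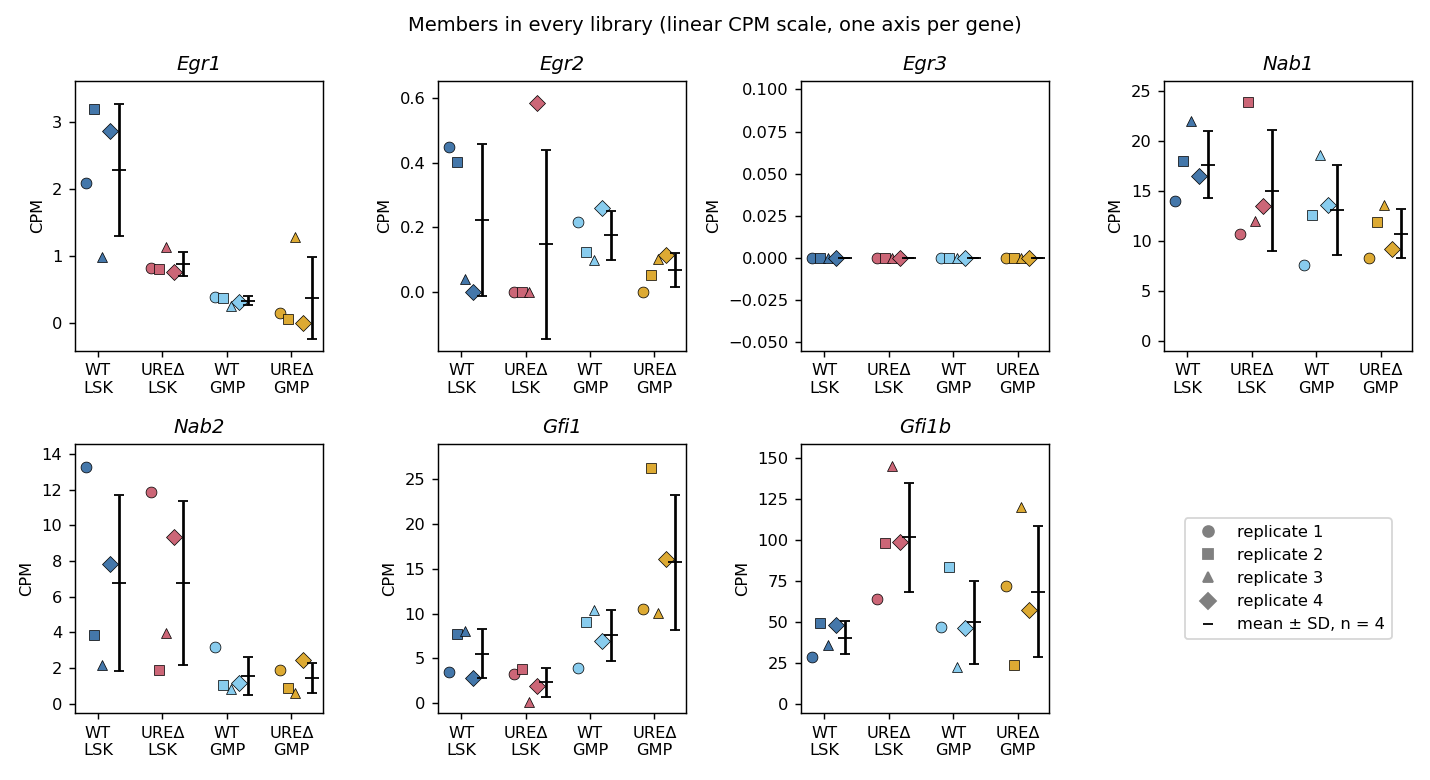
Level of each member in each library, as CPM on a linear axis of its own, in WT and UREΔ LSKs and GMPs. Points are libraries with a shape for each replicate number, and bars give the mean ± SD of 4 libraries. The 4 UREΔ LSK libraries lie above the 4 WT LSK libraries for *Gfi1b*, and *Egr3* is at 0 throughout.

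*Gfi1b* was the member with the highest level per length in every group, and its level in LSKs was 2.48-fold higher in UREΔ than in WT. The gene lies on the minus strand of chromosome 2 (GRCm38, 28609450 to 28621982, 7 exon blocks). WT LSK libraries held 28.2, 49.1, 35.6 and 48.2 CPM of *Gfi1b* in replicates 1 to 4. UREΔ LSK libraries held 64.0, 98.4, 145 and 98.9 CPM. Each UREΔ LSK library was above each WT LSK library, a separation seen for 12.6% of all genes in this comparison. The log2 fold change was 1.31 ± 0.28 (SE, n = 4 per group, edgeR adjusted p = 0.0221, exact permutation p = 0.0286, the smallest possible for 4 against 4). The call depended on the libraries and the fit used. It was kept by DESeq2 at a log2 fold change of 1.34 (DESeq2 adjusted p = 0.00056). With the replicate number as a block it was kept at 1.28 (edgeR adjusted p = 0.00477), and it was kept in 5 of 8 fits that left out 1 library. In a joint fit of all 16 libraries the log2 fold change was 1.33 and was not called (edgeR adjusted p = 0.0902), and with replicates 1 and 4 alone it was 1.07 (0.123), whereas with replicates 2 and 3 alone it was 1.497 and called (0.0337). Leaving out UREΔ LSK replicate 4 gave an adjusted p of 0.0531, WT LSK replicate 1 gave 0.0598 and WT LSK replicate 3 gave 0.0657, with log2 fold changes of 1.09 to 1.48 over all single omissions. With the presence of *Ddx3y* as a covariate, chosen after the data were seen, the log2 fold change was 0.98 and the edgeR adjusted p was 0.143. Among LSK libraries without *Ddx3y*, the 3 UREΔ libraries held 98.4 to 145 CPM and the lone WT library 48.2, and among those with it, the lone UREΔ library held 64.0 and the 3 WT libraries 28.2 to 49.1.

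In GMPs, *Gfi1b* varied widely within each genotype. WT GMP libraries held 46.9, 83.4, 22.1 and 46.4 CPM. UREΔ GMP libraries held 72.1, 23.6, 120 and 57.4 CPM. The groups overlapped over most of their range, and the log2 fold change was 0.48 ± 0.51 (SE, edgeR adjusted p = 0.693). Between compartments, *Gfi1b* differed by 0.29 in WT (edgeR adjusted p = 0.606) and by -0.60 in UREΔ (edgeR adjusted p = 0.376) on the log2 scale.

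The 17 genes of the erythroid and megakaryocyte list had a summed level of 2777 to 3514 CPM in UREΔ LSKs and 1573 to 2425 CPM in WT LSKs, without overlap. Most of that sum came from *Car2*, a carbonic anhydrase (mean 2303 CPM in UREΔ, 1382 CPM in WT), which was not called. Of 16 list members tested in LSKs, *Itga2b*, an integrin of the megakaryocyte lineage, was called higher in UREΔ at a log2 fold change of 1.88, and the adult globin *Hbb-bt* was called lower at -4.54, where 2.38% of all genes were called higher and 3.76% lower. The other adult globins were not called, with means above those of WT for *Hba-a1* (12.1 CPM in UREΔ, 2.44 CPM in WT), *Hba-a2* (20.7 and 3.85 CPM) and *Hbb-bs* (11.7 and 5.11 CPM), and near-identical globin copies can share reads. The median of the list was 0.59, beside 0.000926 for all genes tested. The erythroid regulators *Gata1* (6.77 CPM in UREΔ, 8.66 CPM in WT) and *Klf1* (3.70 and 5.39 CPM) and the carbonic anhydrase *Car1* (9.77 and 20.6 CPM) were not called, with means below those of WT. In UREΔ GMPs, replicate 3 held both the highest *Gfi1b* and the highest list sum (2018 CPM), and replicate 2 both the lowest *Gfi1b* and the lowest sum (537 CPM). In WT GMPs, replicate 2 was highest for both (sum 1342 CPM) and replicate 3 lowest for both (sum 618 CPM). In UREΔ LSKs the orders differed, since replicate 1 held the lowest *Gfi1b* and the highest sum (3514 CPM). They also differed in WT LSKs, where replicate 2 held the highest *Gfi1b* and a sum of 1748 CPM, and replicate 1 the lowest *Gfi1b* and a sum of 2303 CPM. Of 5 basophil and mast cell genes tested in LSKs, *Cpa3* (log2 fold change 1.89) and *Mcpt8* (2.11) were called higher and 0 lower, with a list median of -0.06. *Ms4a2* (-2.74), *Prss34* (-0.94) and *Gata2* (-0.06) were not called. The genes of both lists given here as not called were picked with their values in view. The basophil and mast cell sum was 130 to 253 CPM in UREΔ against 69.3 to 155 CPM in WT. The lymphoid sum was 139 to 301 CPM in UREΔ LSKs against 396 to 783 CPM in WT LSKs, without overlap. Of 7 lymphoid genes tested there, 2 were called lower and 0 higher. Of 12 stem and multipotent progenitor genes, *Cd34* and *Flt3* were called lower and 0 higher. Of 5 dendritic cell genes, *Cd74* was called lower and 0 higher, where 3.76% of all genes were called lower. The part of any of these cell types in the *Gfi1b* level was not tested. In bulk libraries a change in the share of cells and a change of RNA per cell cannot be told apart.

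**Figure D2:**
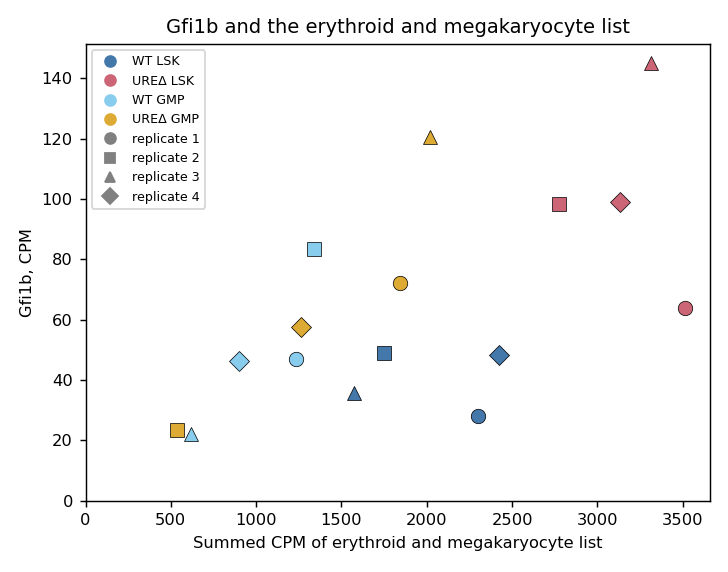
*Gfi1b* level in CPM against the summed CPM of the erythroid and megakaryocyte list, both on linear axes, for 16 libraries coloured by group with a shape for each replicate number. UREΔ LSKs occupy the upper right, with list sums of 2777 to 3514 CPM and *Gfi1b* at 64.0 to 145 CPM.

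*Gfi1* showed a rise from LSKs to GMPs that passed the test in UREΔ cells, where it was 6.55-fold. The gene lies on the minus strand of chromosome 5 (107716657 to 107726036, 8 exon blocks). UREΔ LSK libraries held 3.31, 3.84, 0.169 and 1.97 CPM of *Gfi1*, and UREΔ GMP libraries held 10.5, 26.3, 10.0 and 16.05 CPM. All 4 GMP libraries were above all 4 LSK libraries, as for 26.6% of all genes in this comparison. The log2 fold change was 2.71 ± 0.72 (SE, n = 4 per group, edgeR adjusted p = 0.0242, exact permutation p = 0.0286). The value in UREΔ LSK replicate 3 came from 4 counts, beside 47 to 116 counts in the other UREΔ LSK libraries, and the same library held the highest *Gfi1b* of all 16. Without that library the log2 fold change was 2.37 and remained called (edgeR adjusted p = 0.00784). Without UREΔ GMP replicate 2 it was also 2.37, and the call was lost (edgeR adjusted p = 0.0656). The call was also lost without UREΔ GMP replicate 4 (0.0558) or UREΔ LSK replicate 4 (0.0623).

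In WT, *Gfi1* was 3.53, 7.69, 8.08 and 2.86 CPM in LSKs and 3.90, 9.10, 10.4 and 6.95 CPM in GMPs. The ranges overlapped and the log2 fold change was 0.44 ± 0.43 (SE, edgeR adjusted p = 0.496), although the GMP library was higher in 4 of 4 same-numbered pairs. The difference between the genotypes in this rise, the interaction, was 2.30 ± 0.87 (SE, edgeR adjusted p = 0.272) and was not called. In LSKs, *Gfi1* was lower in UREΔ in 4 of 4 same-numbered pairs, but the ranges overlapped and the log2 fold change of -1.29 ± 0.73 (SE) had an edgeR adjusted p of 0.5. It was -0.31 with replicates 1 and 4 alone, -1.98 with replicates 2 and 3 alone and -0.90 without UREΔ LSK replicate 3, called in none. Within WT, *Gfi1* in replicates 2 and 3 lay above replicates 1 and 4 in both cell types, and within UREΔ these sets overlapped. In GMPs, *Gfi1* was higher in UREΔ in 3 of 4 same-numbered pairs, at a log2 fold change of 1.03 ± 0.40 (SE, edgeR adjusted p = 0.175, exact permutation p = 0.0571). With the replicate number as a block this was called at the same log2 fold change of 1.03 (edgeR adjusted p = 0.0454), in a comparison where 3 of 4 numbers correlated best with their own. UREΔ GMP replicate 2, with the highest *Gfi1*, also held the highest sums of the neutrophil list (160618 CPM) and of the monocyte list (2220 CPM) among UREΔ GMPs and the lowest erythroid and megakaryocyte sum, and the part of the makeup of that library was not tested.

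Per kilobase of exon, *Gfi1b* exceeded *Gfi1* in every library. The ratio was 7.66 to 29.3 in WT LSKs, 33.6 to 1501 in UREΔ LSKs, 3.70 to 20.98 in WT GMPs and 1.56 to 20.9 in UREΔ GMPs. The upper end in UREΔ LSKs belonged to replicate 3 and its 4 *Gfi1* counts, and the median there was 66.1 against 12.5 in WT LSKs. Each UREΔ LSK library had a higher ratio than each WT LSK library, which follows in part from the *Gfi1b* difference given above. *Gfi1* shares 101 exonic bases with the opposite-strand transcript *A430072P03Rik*, whose counts lay between 0 and 14, and these unstranded libraries cannot assign reads of shared bases.

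**Figure D3:**
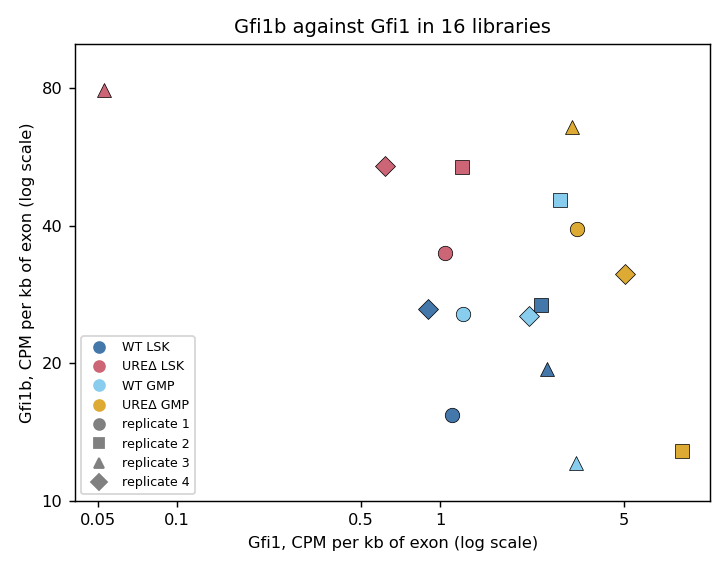
*Gfi1b* against *Gfi1* as CPM per kb of exon on logarithmic axes, for 16 libraries coloured by group with a shape for each replicate number. UREΔ LSKs lie at the upper left, with *Gfi1b* at 34.9 to 79.4 and *Gfi1* at 0.0529 to 1.21 CPM per kb.

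*Egr1* was highest in WT LSKs and fell to GMPs in WT. The gene lies on the plus strand of chromosome 18 (34859823 to 34864984, 2 exon blocks), and its levels were low throughout. WT LSK libraries held 65, 95, 25 and 71 counts of *Egr1* (2.08, 3.19, 0.976 and 2.86 CPM), and WT GMP libraries held 9, 9, 5 and 6 counts (0.390, 0.374, 0.244 and 0.311 CPM). All 4 WT LSK libraries were above all 4 WT GMP libraries, as for 31.4% of all genes. The log2 fold change was -2.77 ± 0.44 (SE, n = 4 per group, edgeR adjusted p = 0.00195, exact permutation p = 0.0286), and it was called in 8 of 8 fits that left out 1 library. With replicates 2 and 3 alone it was -2.64 and not called (edgeR adjusted p = 0.0724), and with replicates 1 and 4 alone -2.79 and called (0.0174).

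UREΔ LSK libraries held 21, 24, 27 and 18 counts of *Egr1* (0.819, 0.796, 1.14 and 0.753 CPM). They spanned a narrow range, which only WT LSK replicate 3 entered. The log2 fold change between the genotypes in LSKs was -1.39 ± 0.44 (SE, edgeR p = 0.0103, adjusted p = 0.116, exact permutation p = 0.0571) and was not called, whereas DESeq2 gave an adjusted p of 0.0302. UREΔ GMP libraries held 3, 1, 25 and 0 counts, so that replicate 3 alone carried 1.28 CPM. From LSKs to GMPs in UREΔ, *Egr1* changed by -1.25 ± 0.996 on the log2 scale (SE, edgeR adjusted p = 0.415), and without UREΔ GMP replicate 3 the change was -3.62 and called (edgeR adjusted p = 0.0147). The interaction for *Egr1* was 1.54 ± 1.14 (SE, edgeR adjusted p = 0.729) and took the opposite sign, -0.85, without that library.

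*Egr2*, on the plus strand of chromosome 10 (67535475 to 67542188), stayed at the edge of detection. WT LSK libraries held 14, 12, 1 and 0 counts, UREΔ LSK libraries 0, 0, 0 and 14, WT GMP libraries 5, 3, 2 and 5, and UREΔ GMP libraries 0, 1, 2 and 2. Mean levels were 0.0668 to 0.223 CPM, and neighbours in the order of the 4 groups overlapped. *Egr3*, on the plus strand of chromosome 14 (70077203 to 70082614), had 0 counts in all 16 libraries. A count of 0 allows up to 3 counts, or 0.00792 CPM over all libraries and 0.0269 to 0.0389 CPM in a group.

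The corepressor *Nab1*, on the minus strand of chromosome 1 (52457294 to 52500679), was called in no comparison. Mean levels were 17.6 ± 3.35 CPM in WT LSKs, 15.0 ± 6.06 in UREΔ LSKs, 13.1 ± 4.53 in WT GMPs and 10.7 ± 2.42 in UREΔ GMPs (SD, n = 4), and neighbours in this order overlapped. Log2 fold changes were -0.26 ± 0.30 between the genotypes in LSKs, -0.30 ± 0.31 in GMPs, -0.44 ± 0.29 from LSK to GMP in WT and -0.52 ± 0.31 in UREΔ (SE), with edgeR adjusted p of 0.27 to 0.846. The GMP library was below the LSK library in 4 of 4 same-numbered WT pairs and in 3 of 4 UREΔ pairs.

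*Nab2*, the other corepressor, fell from LSKs to GMPs in both genotypes and differed little between them. The gene lies on the minus strand of chromosome 10 (127660918 to 127668568, 9 exon blocks). In WT, *Nab2* was 13.2, 3.83, 2.19 and 7.82 CPM in LSKs and 3.16, 1.04, 0.831 and 1.14 CPM in GMPs. In UREΔ it was 11.9, 1.89, 3.96 and 9.33 CPM in LSKs and 1.88, 0.888, 0.615 and 2.42 CPM in GMPs. The groups overlapped in both genotypes, but the GMP library was the lower one in 4 of 4 same-numbered pairs of each. The log2 fold change was -2.14 ± 0.64 in WT (SE, n = 4 per group, edgeR adjusted p = 0.0335, exact permutation p = 0.0571) and -2.27 ± 0.66 in UREΔ (SE, edgeR adjusted p = 0.0346, exact permutation p = 0.0571). The call was lost in 5 of 8 fits without 1 library in each genotype, with adjusted p up to 0.0981 in WT and 0.0994 in UREΔ. With the replicate number as a block, the log2 fold change of *Nab2* was -2.06 in WT (edgeR adjusted p = 0.000329) and -2.15 in UREΔ (0.00284), and both were called. Between the genotypes, *Nab2* differed by -0.04 ± 0.66 in LSKs (edgeR adjusted p = 0.993) and by -0.10 ± 0.58 in GMPs (edgeR adjusted p = 0.955) on the log2 scale, intervals that include sizeable differences either way.

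Within each group, *Nab2* was higher in replicates 1 and 4 than in replicates 2 and 3. In LSKs, the mean of replicates 1 and 4 was 10.5 CPM in WT and 10.6 CPM in UREΔ, and that of replicates 2 and 3 was 3.01 and 2.92 CPM. *Stat6*, a signal transducer of interleukin 4 on the opposite strand, shares 40 exonic bases with *Nab2* and followed the same split in all 4 groups. In WT LSKs, *Stat6* was 218, 87.9, 38.4 and 151 CPM in replicates 1 to 4, and in WT GMPs 222, 55.3, 19.1 and 146 CPM. Unlike *Nab2*, *Stat6* was not called from LSKs to GMPs, at -0.17 in WT (edgeR adjusted p = 0.893) and -0.11 in UREΔ (edgeR adjusted p = 0.904) on the log2 scale. Within replicates 1 and 4 alone, the log2 fold change of *Nab2* was -2.28 in WT (edgeR adjusted p = 0.0364) and -2.29 in UREΔ (0.00371). Within replicates 2 and 3 alone, it was -1.60 in WT (0.0972) and -1.94 in UREΔ (0.253), so that the direction held in each set. The labels do not say what the replicate numbers stand for, and the part of reads from *Stat6* in *Nab2* was not tested. *Nab2* also shares 151 exonic bases with *Nemp1* and 1050 with the antisense transcript *Gm16229*, which had 0 to 4 counts.

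**Figure D4:**
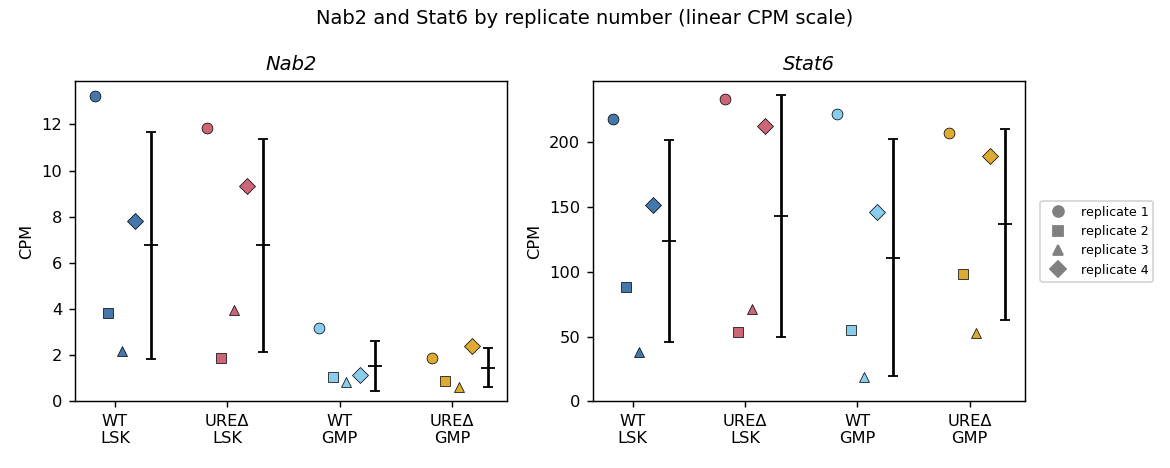
*Nab2* and the neighbouring *Stat6* in each library as CPM on linear axes, with a shape for each replicate number and bars for the mean ± SD of 4 libraries. Replicates 1 and 4 lie above replicates 2 and 3 in every group for both genes, while only *Nab2* was called lower in GMPs than in LSKs.

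**Figure D5:**
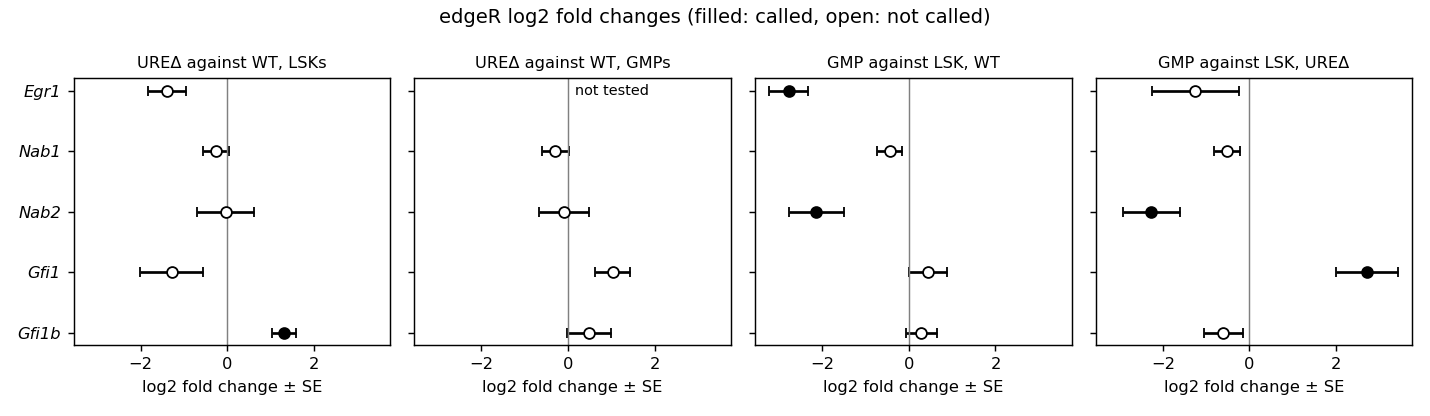
Log2 fold change ± SE of the 5 members tested, from edgeR with 4 libraries per group, in the 4 comparisons of 2 groups. Filled points were called and open points were not. *Gfi1b* is called between the genotypes in LSKs at 1.31, and *Nab2* is called from LSK to GMP in both genotypes at -2.14 and -2.27.

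Order of the members per kilobase of exon was the same in WT and UREΔ LSKs and differed from it in GMPs. In WT LSKs the order was *Gfi1b* (22.0 ± 5.54 CPM per kb), *Nab1* (4.30 ± 0.82), *Nab2* (2.30 ± 1.67), *Gfi1* (1.74 ± 0.86), *Egr1* (0.508 ± 0.219) and *Egr2* (0.0655 ± 0.0694), with SD over 4 libraries. *Nab1* and *Nab2* overlapped there, as did *Nab2* and *Gfi1*. In WT GMPs *Gfi1* stood before *Nab2*. In UREΔ GMPs *Gfi1* was in the next place after *Gfi1b*, at 4.93 ± 2.37 CPM per kb, and overlapped with *Nab1* at 2.62 ± 0.59.

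The genes nearest to each member in pattern were found by the mean absolute difference of centred log2 CPM over 16 libraries, among 9076 genes whose mean reached 3 log2 CPM. For *Egr1* they were *Meis1* (0.46), *Usp18* (0.47) and *Fcgrt* (0.53), where the median gene was 1.32 away. For *Gfi1* they were *Arl11* (0.50), *Msantd3* (0.56) and *Dnajc12* (0.56), against a median of 1.14. For *Gfi1b* they were *Adgrl2* (0.34), *Gnb4* (0.36) and *Sdsl* (0.36), against 0.74. *Peg13* (0.27), *Rgs3* (0.31) and *Aldh1l1* (0.32) were nearest to *Nab2*, against 1.19. *Isoc1* (0.17), *5530601H04Rik* (0.18) and *Bex3* (0.18) were nearest to *Nab1*, against 0.56.

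Other immediate early genes, which share with the Egr genes their quick response to signals, mostly fell from LSKs to GMPs where they changed. Of 16 tested in WT, 7 fell and 2 rose, where 15.8% of all genes fell and 11.5% rose. Of 16 tested in UREΔ, 5 fell and 1 rose, where 12.6% of all genes fell and 9.2% rose, beside medians of -1.04 and -0.82 for the list and -0.09 for all genes in each genotype. *Zfp36*, which destabilises cytokine mRNAs, fell by 2.31 in WT (SE 0.32, edgeR adjusted p = 0.000965) and by 1.24 in UREΔ (SE 0.30, edgeR adjusted p = 0.0156) on the log2 scale. *Jun*, a subunit of AP-1, fell by 2.09 in WT (edgeR adjusted p = 0.00442) and by 1.62 in UREΔ (0.0273). Its partner *Fos* went the other way, with log2 fold changes of 1.19 in WT (0.0412) and 1.46 in UREΔ (0.0416). *Klf4*, a monocyte factor, rose by 2.50 in WT (0.00419). Between the genotypes in LSKs, 1 of 16 was called, close to the 6.14% of all genes. It was *Btg2*, an antiproliferative gene, at 18.4 ± 1.499 CPM in UREΔ against 58.6 ± 7.74 CPM in WT (SD, n = 4, log2 fold change -1.70, edgeR adjusted p = 0.000637). Of 15 tested in GMPs, 1 was called higher in UREΔ, *Klf6* at 0.87 (0.00857), and 1 lower, *Klf4* at -2.86 (0.021), on the log2 scale. Of all genes in GMPs, 4.67% were called higher and 3.63% lower. The Egr family member *Egr4* had 0 counts in all 16 libraries.

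Genes upstream of Egr transcription comprised serum response factor, its partners and the feedback inhibitors of ERK signalling. From LSKs to GMPs, 6 of 15 fell in WT and 8 of 15 in UREΔ, beside 15.8% and 12.6% of all genes, and 0 rose in either. *Dusp6*, an ERK phosphatase, fell by 1.14 in WT (edgeR adjusted p = 0.0241) and by 1.69 in UREΔ (0.000594) on the log2 scale. In LSKs, 2 of 15 were called higher in UREΔ and 0 lower, beside 2.38% and 3.76% of all genes. *Spry4*, an inhibitor of receptor signalling, was 14.0 CPM in UREΔ against 0.700 CPM in WT (log2 fold change 4.28 ± 0.39 SE, edgeR adjusted p = 0.000332), and *Dusp4*, another phosphatase of ERK, was 17.6 against 1.76 CPM (3.30 ± 0.76 SE, edgeR adjusted p = 0.0333). In GMPs, *Dusp5* was called lower in UREΔ at a log2 fold change of -1.78 (edgeR adjusted p = 0.031), as 1 of 14 tested, close to the 8.3% of all genes.

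Corepressor partners of Gfi and Nab proteins, which include *Kdm1a*, the CoREST subunits and the NuRD subunits, were called between the genotypes in shares near those of all genes. Here 0 of 15 were called by edgeR in LSKs (2 at an unadjusted p under 0.05), beside 6.14% of all genes, and 1 of 15 in GMPs, beside 8.3%. The one called was *Ajuba*, at 0.104 CPM in UREΔ against 0.801 CPM in WT. From LSKs to GMPs, 2 of 15 fell in WT and 2 of 14 in UREΔ, near the 15.8% and 12.6% of all genes, and 0 rose in either. Among them were CoREST proteins, each called in 1 genotype only. *Rcor3* fell by 0.62 in WT (edgeR adjusted p = 0.0455) and *Rcor2* by 2.04 in UREΔ (edgeR adjusted p = 0.0381) on the log2 scale.

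Among 9 genes known to be repressed by Gfi1, 2 were called between the genotypes, *Irf8* and *Csf1r*, and both were lower in UREΔ in LSKs and in GMPs, where 3.76% and 3.63% of all genes were called lower. *Irf8*, a transcription factor of monocytes and dendritic cells, changed by -3.19 in LSKs (edgeR adjusted p = 0.000947) and by -2.51 in GMPs (0.0428) on the log2 scale. *Csf1r*, the receptor for macrophage colony-stimulating factor and a target of PU.1, changed by -2.22 in LSKs (0.0184) and by -3.44 in GMPs (0.0101). From LSKs to GMPs, 2 of 9 rose and 2 fell in WT, and 2 rose and 3 fell in UREΔ, where 27.3% and 21.8% of all genes were called in either direction. The stem cell factors *Meis1* and *Hoxa9* fell in WT at -2.08 (edgeR adjusted p = 3.35e-05) and -1.26 (0.00641) and in UREΔ at -2.50 (0.00237) and -2.37 (0.000351), while *Irf8* rose by 2.50 in WT (0.000545) and 3.14 in UREΔ (0.0101). Both *Irf8* and *Csf1r* also belong to the monocyte list and are counted in each.

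On either side of the fate choice that Egr-Nab and Gfi1 are known for, monocyte genes that were called between the genotypes were lower in UREΔ. Of 15 tested in LSKs, 8 were called lower and 0 higher, with a median of -2.22, and of 16 tested in GMPs, 10 were called lower and 0 higher, with a median of -2.42, where 3.76% and 3.63% of all genes were called lower. *Ms4a6c*, a monocyte surface gene, was 0.691 CPM in UREΔ LSKs against 48.8 CPM in WT LSKs. *Ly6c2*, which encodes a surface antigen of monocytes, had a higher mean in UREΔ (7.60 against 4.17 CPM in LSKs, 631 against 306 CPM in GMPs) and was not called (edgeR adjusted p = 0.447 and 0.287). *Zeb2* was not called either, at 202 CPM in UREΔ GMPs against 191 CPM in WT GMPs. Neutrophil genes were called in both directions, beside 6.14% of all genes in LSKs and 8.3% in GMPs. In LSKs, 2 of 14 were called higher, the granule genes *Ngp* (log2 fold change 2.37) and *Elane* (1.15), and 1 lower, *Prtn3* (-2.48). In GMPs, 2 of 15 were called higher, *Lcn2* (3.80) and *Ngp* (2.95), and 2 lower, *Mmp8* (-3.04) among them. The median of the neutrophil list was 0.80 in LSKs and 1.11 in GMPs. At an unadjusted edgeR p under 0.05, 6 were higher and 2 lower in LSKs, and 8 were higher and 2 lower in GMPs. The neutrophil sum was 74311 to 160618 CPM in UREΔ GMPs against 55600 to 71136 CPM in WT GMPs, without overlap, whereas the sums overlapped in LSKs. Most of the sum in GMPs came from *Mpo* (mean 91802 CPM in UREΔ, 50523 CPM in WT), which was not called between the genotypes there.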

How the data were processed

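RNA of LSKs and GMPs from 4 UREΔ and 4 WT mice per cell type was sequenced unstranded. The authors quantified reads with Salmon, summed transcripts to genes with tximport and deposited estimated counts as whole numbers. GRCm38 is named in the submitters' processing notes. The annotation release of these bulk libraries is not given in the sources used here, although the paper names one for its single-cell data. Of 54347 identifiers, 54094 matched GENCODE M21, which gave positions, exon lengths and overlaps. Members and gene lists were chosen with earlier results of these data known.

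Each comparison was fitted over all genes with edgeR 4.0.16 (R 4.3.3), using TMM, filterByExpr, the quasi-likelihood test and Benjamini-Hochberg adjustment. The fit was tried on simulated data with independent libraries and an equal dispersion for every gene. Those data lacked the likeness of same-numbered libraries found here, so the trial does not cover it. Exact two-sided permutation tests (24 in all, unadjusted) were run on log2 CPM (prior count 2). Same-numbered libraries deviated together in every comparison of 2 groups (correlations 0.237 to 0.711), so the replicate number from the labels was also fitted as a block. The labels do not say whether same-numbered LSK and GMP libraries come from 1 mouse, and where they do, p-values without the block may be inexact. The presence of *Ddx3y* agreed between LSK and GMP libraries for each number and genotype, and in both compartment comparisons 4 of 4 numbers correlated best with their own, against 3 of 4 in both genotype comparisons. Replicates 1 and 4, or 2 and 3, also resembled each other across groups (mean correlations 0.215 to 0.262), so part of the pairing is shared within these sets. Alternatives were DESeq2 1.42.0, RLE size factors, no filter, no fold threshold, a joint fit, subsets of replicates and single omissions.

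Genes named are the members, *Spi1*, *Ddx3y* (chosen after its values were seen), genes whose exons overlap a member, the 3 genes nearest in pattern, immediate early genes, sort markers, and up to 3 called genes of smallest adjusted p per list and comparison. Uncalled genes of the cell type lists (such as *Gata1*, *Car2*, *Gata2*, *Ly6c2* and the globins) were added with their values in view. The results of 2 genes are not reported here.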

Additional observations from a re-analysis of the deposited data

Results flagged for a closer look

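In 28 checks of a group of 4 libraries (24 of member levels, without *Egr3*, and 4 of total counts), 1 library stood far from the other 3 in 3 cases. Chance gives about 1 in 20 for normally distributed values. That rate need not hold for the few counts of *Egr1* and *Egr2* or for checks that share libraries. *Egr1* in UREΔ GMP replicate 3 was at 1.28 CPM, above 0 to 0.145 CPM in the other 3. *Egr2* in UREΔ LSK replicate 4 was at 0.585 CPM, where the other 3 had 0 counts. *Nab2* in WT GMP replicate 1 was at 3.16 CPM, above 0.831 to 1.14 CPM in the other 3.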

How the results depend on the processing

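In LSKs, where edgeR called 1 member between the genotypes, DESeq2 called 2, and a joint fit of all libraries, replicates 1 and 4 alone, and the *Ddx3y* covariate each called 0. The log2 fold change of *Gfi1b* was then 1.33 (adjusted p = 0.0902), 1.07 (0.123) and 0.98 (0.143). In GMPs the replicate block called 1 member in place of 0, *Gfi1*, and changed no other call. From LSKs to GMPs, replicates 2 and 3 alone called 0 members in WT and 0 in UREΔ, in place of 2 each. Replicates 1 and 4 alone, as many libraries, called 2 in WT and 3 in UREΔ, with *Egr1* at -3.26 (adjusted p = 0.0442). Single omissions called 0 to 1 members in LSKs, 1 to 2 in WT and 0 to 2 in UREΔ. Without the filter on low counts, *Egr2* was tested and not called.

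Signs turned for effects that were not called. With the covariate, *Nab2* was 0.11 in LSKs, 0.18 in GMPs and 0.018 in the interaction. With replicates 1 and 4 alone, the interaction was -0.48 for *Egr1* and 0.062 for *Nab1*. Single omissions moved *Nab2* from -0.45 to 0.53 in LSKs and from -0.46 to 0.52 in GMPs, *Gfi1b* from -0.0019 to 0.83 between the genotypes in GMPs and from -0.031 to 0.58 between the WT compartments. They moved the interaction from -0.85 to 1.93 for *Egr1*, from -0.26 to 0.26 for *Nab1* and from -0.62 to 0.51 for *Nab2*. The cause was not tested. With a prior count of 0.5, *Egr1* kept 1 of its 3 nearest genes. Depth limits *Egr1* in GMPs (0 to 25 counts a library), *Egr2* (0 to 14) and *Egr3* (0 in all 16), where a count of 0 allows up to 3.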
